A study of Mus musculus with 21 samples.

Results

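The CD300 genes encode a family of immunoglobulin-like receptors of myeloid cells, and 5 of them are described here: Cd300a, Cd300lb, Cd300ld, Cd300lf and Cd300e. They are 5 of the 23250 genes of the deposited table, taken by symbol through their Ensembl IDs. The family was chosen because Cd300lb was lower with FcMR than with its control, so that difference is given as a description and Cd300lb was not tested. The other members entered by name. All 5 passed the filter on low counts.

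The cells were macrophages grown from the bone marrow of mice of the C57BL/6J background, and mRNA was measured by sequencing. The series describes them as deficient in the mannose receptor (MR). The marrow had been cultured for 7 days with 2.5% supernatant from a cell line that makes GM-CSF, a myeloid growth factor. The cells of all 7 groups share this culture and the described deficiency. One group was untreated (0 h). The other groups received either FcMR, a recombinant protein that joins the extracellular region of the MR to the Fc region of human IgG1, or an isotype control, for 4, 12 or 24 h. Untreated cells were measured at 0 h only. In comparisons of isotype with untreated cells, the isotype control and the time in culture therefore cannot be told apart. The study asked what soluble MR does to macrophages that do not make their own. Each group has 3 libraries, 21 in all. The sources used here give no age or sex and do not say whether the replicates came from separate animals or cultures, so p-values measure only the spread between these libraries, which may be technical.

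Library totals ran from 5532225 to 66729533 counts. Levels are given as CPM, the count relative to the TMM-scaled size of its library, and errors are SD over 3 libraries. Mrc1, the gene of the MR, had 0 to 11 counts in a library and did not pass the filter. Of the 8 macrophage markers, all were present in every library, with Csf1r, the receptor for M-CSF, at 680 to 1230 CPM. Lymphocyte markers summed to at most 9.27 CPM and stromal markers to at most 4.92 CPM in any library, and Cd3e was at 0 in 12 libraries. The numbers in the titles put FcMR 12 h replicate 1 and isotype 4 h replicate 3 in each other's place. These libraries also stood apart from their group in the difference between GC-rich and GC-poor genes: the log2 difference was 0.65 in isotype 4 h replicate 3 against -0.84 and -1.6 in its group, and -0.75 in FcMR 12 h replicate 1 against 0.72 and 0.81. Other groups spread in this difference too: it was -0.36, -1.29 and 0.41 in FcMR 24 h replicates 1, 2 and 3, and 0.82, 0.05 and 0.48 in untreated cells. Values without the 2 libraries out of title order are given beside the FcMR differences of each member.

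CD300 receptors carry a single immunoglobulin-like domain outside the cell and recognise lipids, among them phosphatidylserine and phosphatidylethanolamine on dying cells, and ceramide or sphingomyelin. They are paired receptors: members with long tails carry tyrosine motifs that recruit phosphatases and restrain the cell, and members with short tails signal through adaptor proteins such as DAP12 (Tyrobp) and the Fc receptor gamma chain (Fcer1g). Cd300lb, Cd300ld and Cd300e are of the activating kind. Cd300a and Cd300lf are the inhibitory ones, although Cd300lf is also known to support the uptake of dead cells. In macrophages, neutrophils and mast cells the family is known for setting the threshold of responses to microbial products and to dying cells.

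The 5 members lie in 1 cluster on chromosome 11 (GRCm38, GENCODE annotation). Between the first and the last of them, 114890041 to 115133992 or 244 kb, 13 genes are annotated, of which 11 are CD300 genes. Cd300a (ENSMUSG00000034652.12, 114890041 to 114904654) is on the forward strand. The other 4 are on the reverse strand: Cd300lb (ENSMUSG00000063193.8, 114922781 to 114934386), Cd300ld (ENSMUSG00000034641.2, 114982274 to 114989922), Cd300e (ENSMUSG00000048498.7, 115051917 to 115062177) and Cd300lf (ENSMUSG00000047798.15, 115116214 to 115133992). The family arose by duplication, and estimated counts can divide reads between near-identical copies, so shared sequence was measured in stretches of 31 bases. Transcripts were compared in their own direction only, not with the opposite strand. Cd300lb and Cd300e shared none of their stretches with another gene in this direction. Cd300a shared 7.506% of them, mostly with Cd300c2, Cd300ld 6.564%, mostly with Cd300lf, and Cd300lf 4.326%, mostly with Cd300ld. The span of Cd300lb holds the pseudogene Gm11699, with 106 counts over all libraries, and that of Cd300lf lies within that of Rab37. Neither shares an exon with its neighbour.

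The bases before the start of Cd300lb and Cd300e are given here: Cd300lb is the gene that chose the family, and Cd300e is the member that lay above the control at 12 and 24 h, when the other 4 lay below it. Both sequences are from RefSeq (GRCm38.p6), 5′ to 3′ in the direction of the gene, and end before the first transcribed base that GENCODE annotates. Capitals mark the only match in each to the motifs searched. Cd300lb is at chr11:114934387-114934621 and Cd300e at chr11:115062178-115062289, both on the reverse strand.
Cd300lb: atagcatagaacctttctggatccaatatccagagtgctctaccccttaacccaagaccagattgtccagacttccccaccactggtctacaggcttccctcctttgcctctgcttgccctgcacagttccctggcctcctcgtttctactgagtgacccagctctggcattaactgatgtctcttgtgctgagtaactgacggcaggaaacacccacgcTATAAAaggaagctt
Cd300e: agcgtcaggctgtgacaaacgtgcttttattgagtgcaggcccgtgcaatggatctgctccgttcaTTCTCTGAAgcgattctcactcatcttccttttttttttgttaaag

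The motifs were searched on both strands of the 250 bases before the RefSeq start of each member and of 32851 windows of that length. The TATA box letters TATAAA stood in Cd300lb from -30 to -25 and, on the reverse strand, in Cd300lf from -28 to -23, and 12.4% of all windows hold them. The STAT letters TTCNNNGAA stood in Cd300e from -184 to -176 (7.02% of windows). The PU.1 letters GAGGAAGT stood in Cd300ld from -143 to -136 (2.44% of windows), and the C/EBP letters TTGCNNAA in Cd300a from -214 to -207 (9.56% of windows). No member held the AP-1 letters TGANTCA (6.75% of windows), the NF-kB letters GGANTTTCC (1.07%) or the ISRE letters AAANNGAAA (9.37%). The NF-kB and ISRE motifs were searched in shortened form. The matches overlap no other motif searched and describe letters only. Positions are counted from the RefSeq start. The GENCODE start lies 15 bases before it for Cd300lb, 36 for Cd300ld and 138 for Cd300e. No motif was held by both of the activating members shown.

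In untreated cells the inhibitory receptor Cd300lf was the most abundant member. Per kilobase of transcript, the scale on which genes can be compared, it stood at 98.3 ± 12.1 CPM per kb (SD, n = 3), against 33.8 ± 1.63 for Cd300lb, 25.6 ± 0.265 for Cd300a, 17 ± 1.06 for Cd300ld and 6.35 ± 1.27 for Cd300e. Cd300lf was also the highest member in both 4 h groups and in FcMR 12 h. In isotype 12 h Cd300lf and Cd300lb (60.4 ± 7.4 against 57.6 ± 1.36 CPM per kb) differed by less than the SD of Cd300lf. In FcMR 24 h (42.7 ± 8.15 against 42.3 ± 2.48) they differed by less than either SD. In isotype 24 h Cd300lb was the highest, at 103 ± 3.62 CPM per kb against 72.1 ± 5.55 for Cd300lf. Cd300e was the lowest in all 7 groups. The order of the group means was the same in each group with the longest transcript in place of the mean length and with RLE scaling. The sum over the 5 members was 181 ± 12.3 CPM per kb in untreated cells, 110 ± 9.67, 159 ± 8.6 and 261 ± 11.2 with the isotype control at 4, 12 and 24 h, and 81.1 ± 8.22, 67.0 ± 6.77 and 127 ± 9.9 with FcMR. Cd300lf alone made up 54.2% of the sum in untreated cells, 67.9% with FcMR at 4 h and 27.6% with the isotype control at 24 h.

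**Figure D1:**
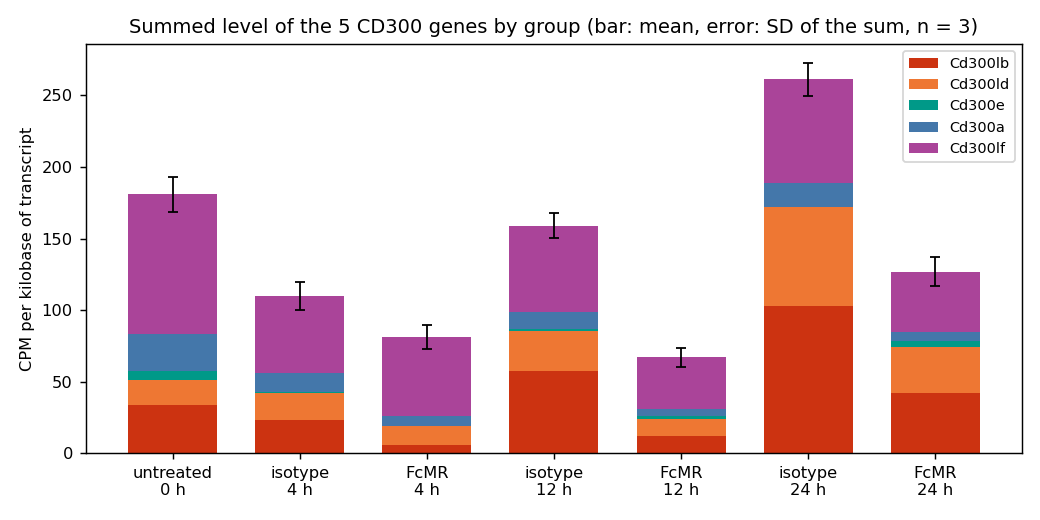
Summed level of the 5 CD300 genes (y axis, CPM per kilobase of transcript) in each of the 7 groups (x axis), stacked by gene; bars are means and error bars the SD of the sum over 3 libraries. The sum is highest with the isotype control at 24 h (261) and lowest with FcMR at 12 h (67.0), and the Cd300lb part is the tallest in isotype 24 h and level with that of Cd300lf in FcMR 24 h (42.3 and 42.7).

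Cd300lb, an activating receptor that pairs with DAP12 and binds phosphatidylserine, is the gene that chose the family. In untreated cells it stood at 88.6, 97.6 and 93.8 CPM in the 3 libraries. At 4 h it was at 72.5, 68.4 and 54.3 CPM with the isotype control and at 16.6, 17.1 and 16.6 CPM with FcMR. The FcMR libraries lay below every other library of the series, close together and with no overlap. At 12 h the isotype libraries were at 156, 158 and 163 CPM and the FcMR libraries at 36.2, 30.5 and 33.9 CPM. At 24 h the values were 279, 276 and 294 CPM against 122, 109 and 119 CPM. The mean at 24 h was 4.35-fold that at 4 h with the isotype control and 6.97-fold with FcMR, while the FcMR libraries stayed the lower ones at each time.

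The log2 difference of Cd300lb between FcMR and isotype was -1.95 (SE 0.098) at 4 h, -2.25 (SE 0.095) at 12 h and -1.28 (SE 0.0914) at 24 h, that is 3.88-, 4.74- and 2.42-fold lower with FcMR. Without the 2 libraries out of title order it was -2.07, -2.3 and -1.27. Against untreated cells the isotype control differed by -0.52 (SE 0.092), 0.77 (SE 0.0906) and 1.60 (SE 0.0922). With FcMR the mean level was 17.9%, 35.9% and 125% of the untreated mean at 4, 12 and 24 h. In the order of the 7 groups, from isotype 24 h down to FcMR 4 h, no neighbours overlapped. The share of Cd300lb in the sum over the 5 members was 18.8% in untreated cells. It was 21.4%, 36.3% and 39.3% with the isotype control and 7.54%, 18.2% and 33.2% with FcMR.

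**Figure D2:**
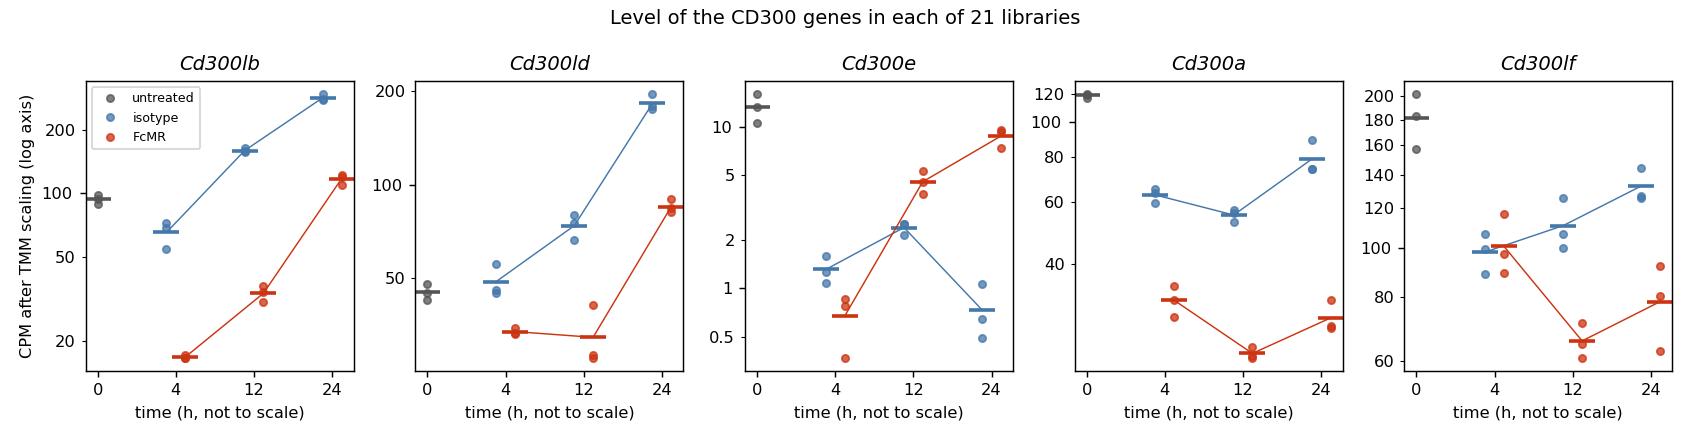
Level of each CD300 gene (y axis, CPM after TMM scaling, a log axis with its own range per panel) at 0, 4, 12 and 24 h (x axis) in untreated (grey), isotype (blue) and FcMR (red) libraries; points are single libraries and short bars are group means. Cd300lb and Cd300ld are higher at 24 h than at 4 h in both arms, and Cd300e is the gene whose red points lie above the blue ones at 12 and 24 h.

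Cd300ld, an activating receptor that pairs with the Fc receptor gamma chain, was likewise lower with FcMR at each time and highest at 24 h. It was at 42.3, 47.8 and 44.5 CPM in untreated cells. At 4 h the isotype libraries were at 45.7, 55.6 and 44.7 CPM and the FcMR libraries at 34.3, 33.1 and 33.0 CPM. At 12 h they were at 79.6, 66.3 and 75.2 CPM against 40.7, 27.6 and 28.1 CPM, the highest FcMR value being that of replicate 1. At 24 h the isotype libraries had reached 196, 175 and 179 CPM and the FcMR libraries 83.8, 89.6 and 81.4 CPM. The groups did not overlap at any of the times.

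Cd300ld fell with FcMR relative to isotype at each time: the log2 difference was -0.54 (SE 0.129, edgeR adjusted p = 0.00693), -1.20 (SE 0.127, adjusted p = 2.46e-06) and -1.11 (SE 0.125, adjusted p = 3.33e-06). The call at 4 h was lost without the expression filter (-0.42, adjusted p = 0.0796), without FcMR 4 h replicate 3 (-0.48, adjusted p = 0.0711) and without isotype 4 h replicate 2 (-0.40, adjusted p = 0.0686). Over its 16 alternatives the adjusted p ran from 0.000636 to 0.0796. Without the libraries out of title order the differences were -0.59, -1.41 and -1.10. The isotype control did not differ from untreated cells past the threshold at 4 h (0.11, 95% interval -0.14 to 0.36, edgeR adjusted p = 0.523), and rose at 12 h (0.72, adjusted p = 0.000165) and at 24 h (2.03, SE 0.129, adjusted p = 8.5e-10), when it was 4.08-fold higher. With FcMR the mean was 74.5%, 71.6% and 189% of the untreated mean at the 3 times. In the order of groups, isotype 4 h overlapped untreated, and FcMR 4 h overlapped FcMR 12 h.

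Cd300e, an activating receptor known from monocytes, was the least abundant member and went the other way. Untreated libraries were at 15.9, 13.2 and 10.6 CPM. At 4 h it was at 1.58, 1.08 and 1.27 CPM with the isotype control and at 0.779, 0.865 and 0.373 CPM with FcMR, from 6 to 11 and 2 to 23 counts a library. Both arms were thus far under the untreated cells at this time. At 12 h the isotype libraries held 2.52, 2.49 and 2.14 CPM and the FcMR libraries 5.36, 3.84 and 4.52 CPM. At 24 h the isotype libraries were at 0.49, 1.07 and 0.644 CPM, from 5 to 10 counts each, and the FcMR libraries at 9.25, 9.59 and 7.44 CPM, from 61 to 261 counts.

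Cd300e rose with FcMR relative to isotype at 12 h, by 0.96 on the log2 scale (SE 0.224, edgeR adjusted p = 0.00554), and at 24 h by 3.57 (SE 0.273, adjusted p = 3.27e-08), which is 11.9-fold. At 4 h the difference was -0.81 (95% interval -1.42 to -0.20, edgeR adjusted p = 0.139) and was not called, although the libraries did not overlap. Without the libraries out of title order the 3 values were -0.83, 0.84 and 3.58. Isotype cells were below the untreated cells of 0 h at each time. The log2 differences were -3.32 (SE 0.258), -2.49 (SE 0.224) and -4.16 (SE 0.271) (edgeR adjusted p = 1.48e-08, 7.45e-08 and 1.2e-09). At 24 h the isotype level was 17.8-fold lower. With FcMR the mean was 5.07%, 34.5% and 66.1% of the untreated mean, below the untreated libraries at each time. From 4 to 24 h the FcMR mean went up 13-fold and the isotype mean to 0.56 of its value.

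Cd300a, an inhibitory receptor for phosphatidylserine and phosphatidylethanolamine, was highest in untreated cells, at 119, 117 and 120 CPM. At 4 h it was at 59.6, 64.9 and 63.4 CPM with the isotype control and at 31.7, 28.5 and 34.8 CPM with FcMR. At 12 h the values were 56.7, 52.7 and 55.7 CPM against 23.4, 21.9 and 22.2 CPM. At 24 h they were 89.2, 73.8 and 73.9 CPM against 31.7, 26.5 and 26.8 CPM. Every treated library was below every untreated one, and every FcMR library was below every isotype library of any time.

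The fall of Cd300a with FcMR relative to isotype was -0.99 on the log2 scale at 4 h (SE 0.0941, edgeR adjusted p = 1.35e-06), -1.29 at 12 h (SE 0.0937, adjusted p = 3.57e-08) and -1.48 at 24 h (SE 0.0941, adjusted p = 3.03e-09). The isotype control was itself lower than untreated cells, with log2 differences of -0.92, -1.11 and -0.59 (edgeR adjusted p = 3.47e-07, 2.38e-08 and 4.4e-05). With FcMR 26.7%, 18.9% and 23.8% of the untreated mean was left. Cd300a is the member whose transcripts the authors' normalization rescaled most: relative to the median of its library, the factor in their deposited table ran from 0.709 to 1.257, while it was 1.0 for Cd300ld and Cd300e in every library. With those factors its 3 differences remained called. Without the libraries out of title order they were -0.99, -1.32 and -1.47.

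Cd300lf, the inhibitory receptor that made up most of the family in untreated cells, was at 202, 183 and 157 CPM there. At 4 h the isotype libraries were at 99.8, 107 and 88.9 CPM and the FcMR libraries at 117, 89.4 and 97.4 CPM. These groups overlapped, and both lay below the untreated libraries. At 12 h the isotype libraries were at 126, 107 and 100 CPM and the FcMR libraries at 71.1, 64.8 and 60.8 CPM. At 24 h they were at 144, 126 and 127 CPM against 92.4, 62.7 and 80.5 CPM, again with no overlap.

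At 4 h the log2 difference of Cd300lf between FcMR and isotype was 0.04 (95% interval -0.23 to 0.32, edgeR adjusted p = 0.885), and -0.02 without the libraries out of title order. It fell by 0.76 at 12 h (SE 0.142, adjusted p = 0.000871) and by 0.76 at 24 h (adjusted p = 0.000707), and by 0.82 and 0.75 without those libraries. The isotype control fell below untreated cells by 0.88 at 4 h (adjusted p = 9.9e-05), 0.70 at 12 h (adjusted p = 0.00061) and 0.45 at 24 h (adjusted p = 0.0163). The last of these calls was lost without untreated replicate 1 (adjusted p = 0.0835), isotype 24 h replicate 2 (0.0984) or isotype 24 h replicate 3 (0.0983), the range over 16 alternatives being 0.00047 to 0.0984. With FcMR the mean was 56.2%, 36.3% and 43.5% of the untreated mean. The 6 treated groups formed a graded series in which each group overlapped the next.

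**Figure D3:**
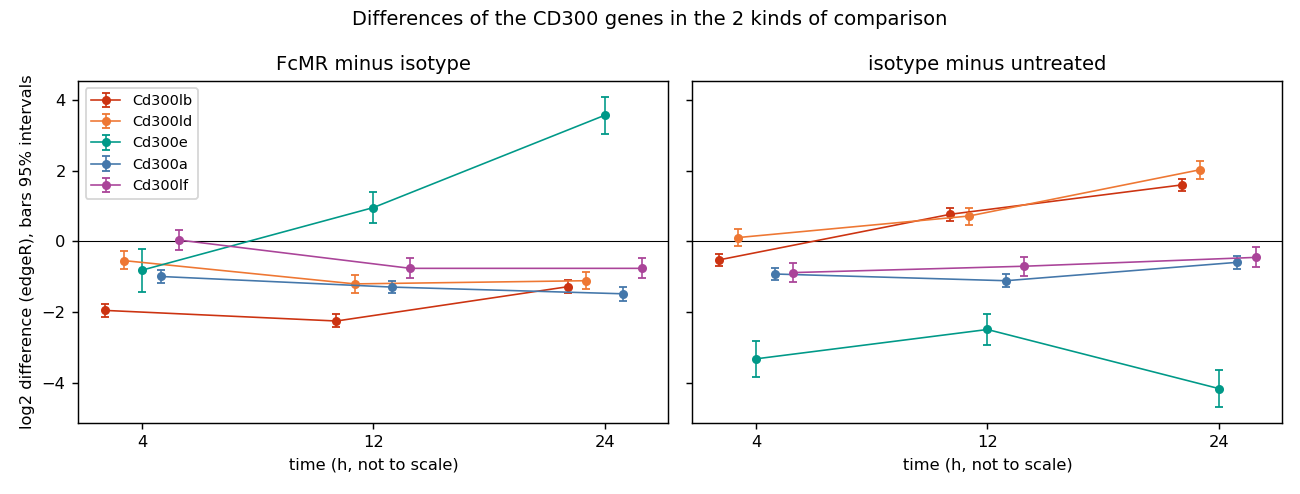
Log2 differences (y axis) of the 5 CD300 genes at 4, 12 and 24 h (x axis, offset by gene), FcMR minus isotype on the left and isotype minus untreated on the right; points are edgeR estimates and bars are 95% intervals. On the left Cd300e runs from -0.81 to 3.57 while the others stay at or below 0.04, and on the right Cd300lb and Cd300ld end above 0 while the other 3 genes stay below it.

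Counted over the 4 members that were tested, FcMR against isotype had 2 called lower, 0 higher and 2 not called at 4 h. At 12 h and at 24 h, 3 were called lower and 1 higher. Over all 13468 genes tested, 9.13% were called lower and 8.62% higher at 4 h, 7.49% and 8.61% at 12 h, and 9.44% and 11.4% at 24 h. At 4 h the split of all calls depends on the scaling: 1161 genes were called higher and 1229 lower with TMM, and 1412 and 839 with RLE. Without overlap between FcMR and isotype libraries were 4 of the 5 members at 4 h, all but Cd300lf, and 5 of 5 at 12 and 24 h, as were 29.7%, 35.4% and 34.4% of all genes. Nothing is read from the members' counts, since the family was chosen on this contrast. The isotype control against untreated cells had 3 members called lower and 1 not called at 4 h, and 3 lower and 1 higher at both later times. The background there was 15.2% lower and 20.4% higher at 4 h, 19.6% lower and 22% higher at 12 h, and 20.9% lower and 21.3% higher at 24 h. Without overlap between isotype and untreated libraries were 4 of the 5 members at 4 h, all but Cd300ld, and 5 of 5 at 12 and 24 h, beside 42.4%, 61.8% and 62.7% of all genes. These comparisons share their isotype libraries with those of FcMR, so the 2 sets of values are not independent.

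The activating and the inhibitory members did not form 2 blocks. Cd300lb and Cd300ld, both activating, were higher at 24 h than at 4 h in both arms, and Cd300e, also activating, was lower in the isotype cells at 24 h than in any other isotype group. Over the 7 group means (log2 CPM), Pearson's r was 0.89 between Cd300lb and Cd300ld and 0.935 between the inhibitory members Cd300a and Cd300lf. For the other pairs r ran from -0.206 between Cd300ld and Cd300e to 0.554 between Cd300a and Cd300lb. These correlations describe 7 points that share libraries and scaling.

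The FcMR effect itself was compared between the times with a joint edgeR test of the 4, 12 and 24 h differences, which called 11% of all genes tested. Cd300e passed it, the effect at 24 h being 4.38 higher on the log2 scale than at 4 h (SE 0.422, adjusted p = 7.41e-06). Cd300lf passed, the effect at 24 h minus that at 4 h being -0.80 (SE 0.201, adjusted p = 0.0149). This call was lost without FcMR 4 h replicate 1 (adjusted p = 0.0694, the highest of 28 alternatives, the lowest being 0.000306). Cd300ld passed at adjusted p = 0.0367 (difference of effects -0.57, SE 0.178), a call that was lost in 14 of 28 alternatives (adjusted p 8.16e-05 to 0.122). Cd300a did not pass (-0.49, SE 0.132, adjusted p = 0.0517) and did in 9 of 28 alternatives (adjusted p 0.00215 to 0.423). For Cd300lb the effect was 0.68 less negative at 24 h than at 4 h (SE 0.131), given without a test.

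Other CD300 genes of the cluster are not among the 5. Cd300c2, an activating receptor next to Cd300ld and the gene with the second closest pattern to it, was at 113 ± 5.43 CPM in untreated cells. With the isotype control it was at 103 ± 6.14, 192 ± 4.14 and 323 ± 8.93 CPM, and with FcMR at 84.6 ± 3.47, 87.8 ± 4.8 and 183 ± 22.6 CPM, at 4, 12 and 24 h. It fell with FcMR by 0.29, 1.13 and 0.82 on the log2 scale (edgeR adjusted p = 0.0218, 4.07e-08 and 8.46e-07). It shares 12.274% of its 31-base stretches, mostly with Cd300a. Its transcript is 1187 bases long, against a mean of 1837 for Cd300lf. It is not part of the sums per kilobase above, so the shares and the order by level given there hold among the 5 members only. Cd300ld3 shares 84.146% with its copies, so its values are uncertain. As deposited, it was higher with FcMR at 4 h (0.78, edgeR adjusted p = 0.0333) and lower at 12 h (-1.36, adjusted p = 0.000179) and 24 h (-2.48, adjusted p = 1.17e-07). Cd300c had 98 counts and Cd300ld2 20 counts over all 21 libraries. Cd300ld4 and Cd300ld5, near-identical copies, are not among the 23250 genes with values.

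For each member the 3 genes whose group means ran closest to its own were taken from 11110 genes whose average log2 CPM was 1 or more, by Pearson's r over the 7 group means. Cd300lb ran closest to Rassf8 (r = 0.989), Ivd, an enzyme of leucine breakdown (0.9841), and Ndc1, a nuclear pore protein (0.9821). Rassf8 was at 61.0 CPM in untreated cells, at 45.1 and 23.6 CPM in isotype and FcMR cells at 4 h, and at 114 and 57.7 CPM at 24 h. Cd300ld ran closest to Abhd5, the activator of fat droplet lipolysis (0.9877), Cd300c2 (0.9837) and Abcd2, a peroxisomal fatty acid transporter (0.9817). Among the genes closest to Cd300a were Zfp850 (0.9889) and the growth factor gene Pdgfa (0.9864). Cd300lf ran closest to the DNA replication gene Cdc45 (0.9919), Gtse1 (0.9881) and the phospholipase gene Plcb2 (0.9871). Nothing ran as close to Cd300e: its nearest were Edrf1 (0.9537), Stx5a (0.9386) and Cdkn2aip (0.9275). With 7 points and so many genes searched, high values of r are easily reached, and these are descriptions.

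The partners through which the receptors signal were counted next. Among 14 activating adaptors and kinases, all measured, FcMR against isotype had 6 called higher and 1 lower at 4 h, 3 higher and 2 lower at 12 h, and 4 higher and 3 lower at 24 h. Their median log2 difference was 0.31, 0.05 and -0.01, beside -0.073, -0.017 and 0.006 over all genes tested. The lowest at each time was Lat2, an adaptor of myeloid receptor signalling, at -0.60, -1.0 and -1.67 (edgeR adjusted p = 0.000773, 2.16e-06 and 3.01e-09). At 24 h Lat2 was at 46.3 ± 0.511 CPM with FcMR and at 147 ± 8.8 CPM with the isotype control. The highest was the kinase gene Src at 4 h (1.33, SE 0.404, adjusted p = 0.0294), where the isotype libraries varied widely (33.1 ± 24.4 CPM), and Malt1, which links receptor kinases to NF-kB, at 12 and 24 h (1.24 and 1.53). Tyrobp (DAP12), named here with Fcer1g as the adaptors of the activating members and chosen after their values were seen, differed by 0.31 at 4 h, which was not called, and fell at 12 h (-0.66) and 24 h (-0.96). Fcer1g, the Fc receptor gamma chain, differed by 0.21 at 4 h, not called, and rose at 12 h (0.54) and 24 h (0.63). Against untreated cells the isotype control had 5 higher and 2 lower, 5 and 4, and 4 and 5 at the 3 times.

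Of 9 inhibitory phosphatases and docking proteins, 1 was called higher and 1 lower with FcMR at 4 h, and 0 higher and 2 lower at each later time. Their median log2 difference was 0.13, 0.01 and -0.27. Inpp5d, the lipid phosphatase SHIP, was the lowest called at 4 h (-0.74, edgeR adjusted p = 9.99e-05) and was also lower at 12 h (-0.47) and 24 h (-0.57). Ptpn11, the phosphatase SHP-2, was the one called higher at 4 h (0.25, adjusted p = 0.0209). Dok2, a docking protein, was lower at 12 h (-1.21, SE 0.306) and 24 h (-1.16, SE 0.311). The isotype control against untreated cells had 3 higher and 2 lower at 4 h, and 4 higher and 0 lower at each later time.

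Among 30 other paired and DAP12-linked receptors of myeloid cells, 28 passed the filter. With FcMR 7, 9 and 9 were called higher and 5, 6 and 9 lower at the 3 times, and the median log2 difference was -0.04, 0.04 and -0.07. The lipid- and glycolipid-sensing Clec4e (Mincle) was the highest at 4 h (0.78) and at 24 h (4.12, SE 0.161, edgeR adjusted p = 8.24e-12), at 3330 ± 762 against 191 ± 7.33 CPM. Trem1, which amplifies inflammatory responses through DAP12, was the highest at 12 h (1.82, SE 0.145). The inhibitory Cd200r1 was the lowest at 4 h (-0.85), the lipid-binding Trem2 at 12 h (-1.31) and Siglecf at 24 h (-2.13, 4.04 ± 0.659 against 18 ± 1.0 CPM). The isotype control against untreated cells had 10 higher and 5 lower, 11 and 7, and 14 and 7.

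Of 16 other receptors and bridging proteins for phosphatidylserine or lipids, 12 passed the filter. FcMR against isotype had 2 called higher and 1 lower at 4 h, 1 and 4 at 12 h, and 1 and 8 at 24 h. The median log2 difference was -0.12, -0.56 and -0.63, against -0.073, -0.017 and 0.006 over all genes. The scavenger receptor Marco was the one that rose at 12 h (1.21, SE 0.323) and at 24 h (1.93, SE 0.332, edgeR adjusted p = 0.000324). Mertk, a receptor for dead cells, was the highest called at 4 h (0.67) and Havcr2 (TIM-3) the lowest (-0.85). Tyro3 was the lowest of those called at 12 h (-0.76, adjusted p = 0.0466), where Mfge8 (-0.88), Stab1 (-0.82) and Gas6 (-0.78) were lower and not called, and Pros1, a bridge between phosphatidylserine and the Mertk family, at 24 h (-1.59, 11.4 ± 0.476 against 34.4 ± 4.76 CPM). In the isotype control against untreated cells 4 were higher and 3 lower, then 6 and 2, and 7 and 3.

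**Figure D4:**
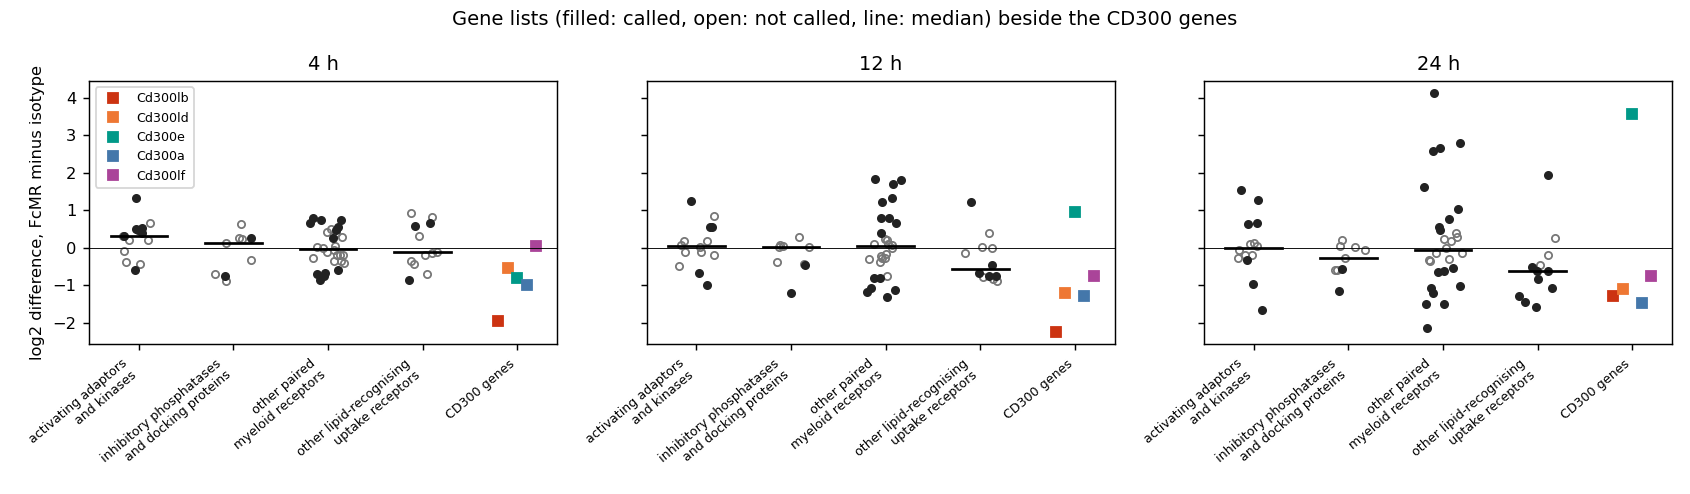
Log2 difference FcMR minus isotype (y axis) of the genes of 4 lists and of the 5 CD300 genes (x axis) at 4, 12 and 24 h (panels); circles are list genes, filled where called by edgeR, black lines are list medians and coloured squares are the CD300 genes. The median of the uptake receptors lies at -0.63 at 24 h, and the CD300 genes other than Cd300e lie between -0.76 and -1.48 there.

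Markers of other cells moved with time in the same libraries. The 10 granulocyte markers summed to 1410 to 1640 CPM in untreated libraries and to 186 to 221 CPM with the isotype control and 206 to 230 CPM with FcMR at 24 h. Against untreated cells the isotype control had 7 of the 10 called lower at 4 h and 10 of 10 at 12 and 24 h. Between FcMR and isotype, 0 were called at 4 h, 1 higher at 12 h, and 1 higher and 2 lower at 24 h. The 10 dendritic cell markers summed to 433 to 500 CPM with the isotype control and to 718 to 773 CPM with FcMR at 24 h, with 2 called higher and 0 lower. Most of that sum is Ccr7, at 238 to 705 CPM over all libraries, while no other marker of the list passed 50.2 CPM, and the median log2 difference of the list at 24 h was -0.15. The 8 mast cell and basophil markers summed to 55.4 to 57.1 CPM in untreated libraries, 18.4 to 21.4 CPM in isotype and 27.4 to 30.7 CPM in FcMR libraries at 24 h. The macrophage markers summed to 31200 to 35400 CPM in isotype and 25900 to 27900 CPM in FcMR libraries at 24 h, with 2 of 8 called higher and 4 lower. Most of that sum is Lyz2, at 16600 to 30500 CPM over all libraries, while no other marker of the list passed 1800 CPM. The median log2 difference of the macrophage list at 24 h was -0.33. In bulk RNA, fewer cells of a type and less RNA per cell cannot be told apart, and the part of these markers in the differences of the CD300 genes was not tested.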

How the data were processed

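RNA-seq libraries (TruSeq v2, 75 bp single-end reads, per the labels' protocols) were processed with CASAVA 1.8.2, kallisto 0.44.0 and DESeq2 against mm10/GRCm38, per the submitters' processing notes; the annotation is not given in the sources used here. The deposited raw table holds estimated counts per gene, already whole numbers; each gene in it sums to 10 or more over the libraries. The deposited normalized table holds a linear signal, the raw value divided by a factor per gene and library that the authors made, and served only as an alternative. The kit does not mark strand.

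The members and gene lists were chosen with earlier results of these data known. IDs were matched without version to GENCODE M21 (23187 of 23250 matched). One edgeR 4.0.16 fit (R 4.3.3, TMM, filterByExpr with a minimum of 10 counts, 13468 genes, quasi-likelihood test, Benjamini-Hochberg adjusted p-value under 0.05) covered the 21 libraries and gave 6 comparisons and the joint test over time. It was tested on simulated data. Log2 CPM used a prior count of 2. All 5 members are named; of each list, the called genes with the highest and lowest difference per FcMR comparison (genes outside this rule: Tyrobp, Fcer1g, Mfge8, Stab1, Gas6 and Ccr7, chosen after their values were seen); of the locus, its CD300 genes; by likeness, 3 genes a member, of which 1 is not reported here. Cd300lb received no test. Levels per kilobase use the mean length of the protein-coding transcripts. Replicate libraries correlated at r = 0.92 to 0.987 and their counts differed beyond sampling noise (chi-square over its degrees of freedom 3.09 or more). Alternatives were RLE, DESeq2 1.42.0, no filter, a minimum mean of 10 counts, the authors' factors, fewer groups, a replicate block, GC correction, and libraries left out.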

Additional observations from a re-analysis of the deposited data

Results flagged for a closer look

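The FcMR effect differed between the times by the joint edgeR test for 3 members. For Cd300e the log2 difference between FcMR and isotype was -0.81, 0.96 and 3.57 at 4, 12 and 24 h (adjusted p = 7.41e-06), a call kept in 28 of 28 alternatives. For Cd300lf it was 0.04, -0.76 and -0.76 (adjusted p = 0.0149), a call kept in 27 of 28. For Cd300ld it was -0.54, -1.20 and -1.11 (adjusted p = 0.0367), a call lost in 14 of 28, each of them a fit with 1 library left out.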

How the results depend on the processing

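The counts of genes called over the whole table moved more than the members did. FcMR against isotype at 4 h called 2390 genes, and 868 with only the groups compared, 3898 without the libraries out of title order, 3753 with GC correction, 3973 with GC correction and replicate block, and 1589 to 3151 with 1 library left out. The lowest of these came without FcMR 4 h replicate 2. At 12 h the count was 2169, 3396 with GC correction, 3563 with GC correction and replicate block, and 1570 to 1841 with 1 library left out. At 24 h it was 2813, and 2091 to 3135 with 1 left out. Isotype against untreated called 4792 at 4 h (2881 with only the groups compared, 3784 to 6251 with 1 left out), 5602 at 12 h (4577 to 5076) and 5690 at 24 h (4876 to 5180). The joint test over time called 1484, 925 without filter, 2616 without the libraries out of title order, 2991 with GC correction, 3217 with GC correction and replicate block, and 973 (without FcMR 4 h replicate 2) to 2294 (without isotype 4 h replicate 3) with 1 left out. Its split of 840 genes with an effect higher at 24 h and 644 lower became 587 and 780 with RLE. The cause of these shifts was not tested.

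The values that changed sign were 2 near 0 that were not called. Cd300lf, FcMR against isotype at 4 h (0.04), was -0.02 without the libraries out of title order and -0.07 to 0.14 with 1 library left out, below 0 without FcMR 4 h replicate 1 (-0.07) or isotype 4 h replicate 3 (-0.02). Cd300ld, isotype against untreated at 4 h (0.11), was -0.05 with GC correction, -0.05 with GC correction and replicate block, and -0.02 to 0.17 with 1 library left out, the lowest without isotype 4 h replicate 2. For the 6 comparisons of the tested members, the calls not named as lost in the text above were kept under each alternative.

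No pairing of the libraries by replicate number was seen. The mean correlation of same-numbered libraries ran from -0.071 to 0.106 over the 6 comparisons, and single correlations from -0.166 to 0.338. With the replicate block the counts were 2541, 2290 and 2911 for FcMR against isotype, 5072, 5753 and 5849 for isotype against untreated, and 1620 for the joint test. Of the members' calls the block changed that of Cd300a in the joint test, to adjusted p = 0.04 with edgeR (0.00215 to 0.423 over its 28 alternatives). Cd300e, with 2 to 23 counts a library at 4 h and 5 to 10 with the isotype control at 24 h, is the member whose level depth limits most.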
